A study of Homo sapiens with 9 samples.

Results

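The comparison described here set LNCaP cells given R1881 together with MEL-6 against LNCaP cells given R1881 alone, gene by gene. Its members were 6 of the 9 libraries of the series, 3 per group, and all genes at 0.5 RPKM or more in at least 3 of the 9 libraries, which gave 13295 of the 25122 genes in the table. RPKM divides the reads of a gene by the length of its gene model and by the size of the library, so that levels can be set side by side between genes as well as between libraries. LNCaP is a prostate cancer cell line of luminal epithelial character that grows in response to androgen. All cells, also those of the vehicle group, were first starved of steroids for 24 h in medium with 5% charcoal-treated serum. They were then kept for 18 h with DMSO, with R1881, a synthetic androgen, at 1 nM, or with the same dose of R1881 plus MEL-6 at 10 µM. MEL-6 is a code name, and the purpose stated by the submitters was to establish whether it acts on androgen signalling. The design holds 1 line, 1 dose of each agent and 1 time, and no libraries of MEL-6 without androgen were analysed here, so that what MEL-6 does to the androgen response and what it does apart from androgen cannot be told apart. The vehicle libraries are given as values for orientation only.

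Androgens act through steroid-activated transcription, in which the hormone-bound factor leaves an HSP90-containing chaperone complex, enters the nucleus and binds DNA at inverted repeats of a short half-site. In luminal prostate cells androgen raises genes of secreted proteases such as the kallikreins, of lipid and polyamine synthesis and of the secretory pathway, and lowers others. A second system that recurs below is the integrated stress response, in which phosphorylation of the initiation factor eIF2 lowers general translation and raises translation of the transcription factor ATF4, which then induces genes of amino acid supply.

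Estimated depths ran from 5.61 to 15.73 M (mega) reads, and the R1881 libraries were the deeper ones, with depths relative to vehicle replicate 1 of 1.23, 1.18 and 1.69 against 0.601, 1.08 and 0.947 with MEL-6. Between 15914 and 16822 genes were above 0 in a library, and replicates correlated across genes at r = 0.985 to 0.994 on the log2 scale. The first principal component of the 6 libraries held 76.7% of the variance and separated the groups. On the second, 10.3%, the score of MEL-6 replicate 1, the library of least depth, was 21.2, and the other MEL-6 libraries scored -6.26 and -16.31. Luminal markers, all 13 of them tested, summed to 4530 to 4747 RPKM with R1881, 1728 to 1841 RPKM with MEL-6 and 1334 to 1445 RPKM in vehicle. KLK3 made the largest part of the R1881 sum, while CDH1 stood at 139.6, 128 and 140.1 RPKM with R1881 and 157.1, 170.5 and 168.5 RPKM with MEL-6. In such bulk libraries fewer cells of a type and less RNA per cell cannot be told apart. Of the markers of other cells, the basal genes KRT5 and TP63, the leukocyte gene PTPRC and the endothelial genes PECAM1 and CDH5 were listed at 0 in all 6 libraries. The basal list summed to 8.51 to 8.95 RPKM with R1881 and 14.04 to 17.71 RPKM with MEL-6, the leukocyte list to 3.52 to 4.07 and 3.55 to 4.72 RPKM. Most of the basal sum came from the integrin ITGA6, at 7.73, 7.24 and 7.4 RPKM with R1881 and 15.8, 12.4 and 12.3 RPKM with MEL-6. The neuroendocrine list was not low, at 163 to 172.6 RPKM with R1881, 158 to 166 RPKM with MEL-6 and 209 to 221 RPKM in vehicle, nearly all of it from SYT4, ENO2 and DDC. The labels call the replicates biological, and the p-values measure the spread between these libraries.

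Adding MEL-6 changed a large share of the genes. At a Benjamini-Hochberg adjusted p under 0.05 in limma, 6912 of the 13295 genes were called, 52% of those tested, and each gene said below to have risen or fallen passed this adjusted p. Of these, 4175 were higher with MEL-6 (31.4%) and 2737 lower (20.6%), with a median log2 change over all tested genes of 0.07 on the log2(RPKM + 0.5) scale. The counts given below for gene lists are to be read beside these shares of all tested genes. The split between directions depended on scaling: with median-of-ratios scaling 3268 genes were higher and 3783 lower, and the median was -0.02. The largest changes on the log2(RPKM + 0.5) scale, which makes changes of low genes appear smaller, were falls. Changes of 2-fold or more numbered 477 higher (3.59%) and 315 lower (2.37%), whereas at 4-fold there were 37 higher and 68 lower, and at 8-fold 3 higher and 19 lower. In 4762 genes every MEL-6 library lay above every R1881 library (35.8%), and in 3182 every one lay below (23.9%).

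Direction went with level. Among the 2343 genes with a mean under 2 RPKM over the 6 libraries, 38% were called higher and 5.98% lower, with a median log2 change of 0.33. Among the 1437 genes at 50 RPKM or more, 21.9% were higher and 40.9% lower, with a median of -0.10. The classes between had medians of 0.15 (2 to 10 RPKM) and -0.01 (10 to 50 RPKM). Set against vehicle, the genes under 2 RPKM had a median log2 change of -0.235 with R1881 alone and 0.072 with MEL-6. The same medians were -0.175 and 0.014 at 2 to 10 RPKM and -0.072 and -0.05 at 10 to 50 RPKM. At 50 RPKM or more they were -0.039 and -0.058. The R1881 libraries were also the deeper ones, and the part of depth in the pattern was not tested.

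**Figure D1:**
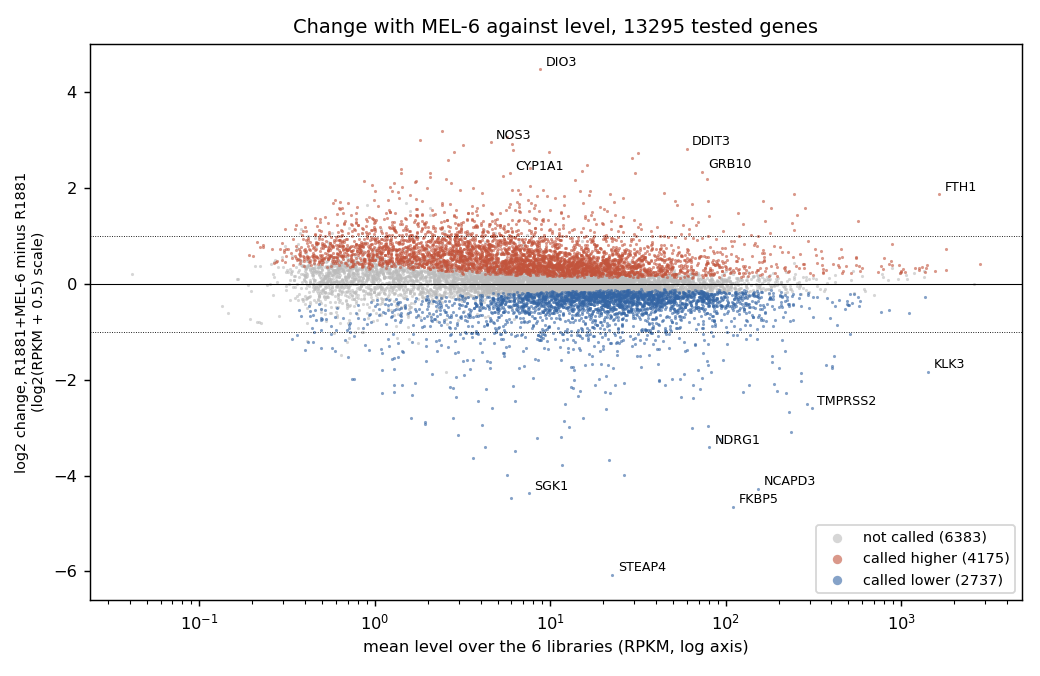
Log2 change with MEL-6 (y axis, log2(RPKM + 0.5) scale) against the mean level over the 6 libraries (x axis, RPKM, log axis) for each tested gene, with genes called higher in red, called lower in blue and not called in grey; dotted lines mark a 2-fold change. Beyond a 16-fold change lie 1 rise, that of DIO3, and 5 falls, and the low-level end is richer in red than in blue points.

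The androgen-induced genes fell. Of 21 tested members of this list, 20 were called lower and 0 higher, 19 of them by 2-fold or more, with a median log2 change of -1.85. The member not called was MED28, named here after its values were seen. Together the 21 genes made up 1.42%, 1.43% and 1.4% of all summed RPKM in the R1881 libraries and 0.35%, 0.358% and 0.339% with MEL-6. In the vehicle libraries the share was 0.191%, 0.199% and 0.173%, so that with MEL-6 the summed level lay between those of vehicle and R1881, nearer to vehicle.

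KLK3 (chromosome 19, 51358171 to 51364020, GRCh37) encodes prostate-specific antigen, a secreted protease widely used as a marker of androgen action. It was at 2153, 2268 and 2238 RPKM in the 3 R1881 libraries, at 611, 624 and 623 RPKM with MEL-6 and at 328, 325 and 269.8 RPKM in vehicle. All MEL-6 libraries thus lay under every R1881 and above every vehicle library, and the log2 change against R1881 was -1.84 ± 0.0758 (SE; limma adjusted p = 2.75e-08). KLK2, a neighbouring kallikrein, went from 324 ± 11.8 to 68.1 ± 2.39 RPKM (SD, n = 3), and KLK4 from 134 ± 5.62 to 104 ± 4.33 RPKM. Of the 4 kallikreins tested 3 were called lower, and KLK4 was the least changed of them, at log2 -0.37 ± 0.0599. The promoter of KLK3 is shown because it holds a half-site of the androgen response element, given in capitals, 170 bases before the gene start. The window runs from 250 bases before to 50 bases after the start, chr19:50854665-50854964 on the + strand of GRCh38.p14, from RefSeq.
KLK3: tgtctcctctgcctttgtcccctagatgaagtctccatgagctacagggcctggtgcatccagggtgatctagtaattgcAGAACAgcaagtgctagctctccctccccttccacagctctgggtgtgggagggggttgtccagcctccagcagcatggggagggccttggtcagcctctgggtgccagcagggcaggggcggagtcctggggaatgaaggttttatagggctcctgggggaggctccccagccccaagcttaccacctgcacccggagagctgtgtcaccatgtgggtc
The half-site AGAACA, searched on both strands, was found in 14.9% of all 27305 promoter windows, in 8.68% of the 9721 tested genes that had a window and in 3 of the 14 androgen-induced genes that had one. Its share was 11.1% among genes lower by 2-fold or more and 10.3% among genes higher by 2-fold or more. Of the ATF4 targets described below, 3 of 17 with a window held it. The full inverted repeat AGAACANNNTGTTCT was found in 1 of 27305 windows and in none of a tested gene. A match is a description of the letters in this window.

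Of the genes that fell most, several came down to about their vehicle levels. STEAP4 (chromosome 7, 87905744 to 87936209), a metalloreductase of iron and copper, stood at 47.2, 43.3 and 44.5 RPKM with R1881 and at 0.229, 0.182 and 0.125 RPKM with MEL-6, against 0.118, 0.151 and 0.192 RPKM in vehicle. FKBP5 (chromosome 6, 35541362 to 35688325), an immunophilin co-chaperone of steroid receptors, went from 214, 212 and 212 RPKM to 8.12, 8.11 and 7.75 RPKM, with vehicle at 9.17, 9.7 and 9.72 RPKM. The kinase SGK1, a target of steroid receptors, was at 15.3, 14.3 and 14.8 RPKM with R1881 and at 0.404, 0.225 and 0.117 RPKM with MEL-6, with vehicle at 0.199, 0.300 and 0.378 RPKM. In these 3 genes the groups were far apart and replicates close, and every FKBP5 value with MEL-6 was under every vehicle value. The log2 changes were -6.07 ± 0.0976, -4.65 ± 0.0473 and -4.37 ± 0.148 (SE), each with a limma adjusted p of at most 7.23e-09. The low values of STEAP4 and SGK1 correspond to few reads, since 3 reads in a 2 kb gene equal 0.0954 to 0.268 RPKM in these libraries, and the fitted changes of such genes depend on the pseudocount.

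NCAPD3 (chromosome 11, 134022337 to 134094426), a subunit of the condensin II complex that compacts chromosomes, was at 289, 288 and 298 RPKM with R1881 and at 13.7, 15.7 and 14.5 RPKM with MEL-6. Vehicle lay between, at 28.3, 28.2 and 25.9 RPKM, so that with MEL-6 the gene was under its level without androgen. NPPC, which encodes C-type natriuretic peptide, fell from 48.9, 50.6 and 49.3 to 3.06, 2.66 and 2.33 RPKM and kept above the vehicle values of 0.63, 0.706 and 0.844 RPKM. HPGD, which inactivates prostaglandins, fell from 43.9, 39.7 and 37.4 to 2.99, 2.6 and 2.51 RPKM. NDRG1, a stress- and hormone-responsive gene, fell from 147 ± 7.56 to 13.4 ± 0.373 RPKM, and ERRFI1, a feedback inhibitor of the EGF receptor, from 167 ± 1.95 to 17.3 ± 0.494 RPKM (SD, n = 3). The transcription factors MAF, from 10.8, 10.7 and 14.2 to 0.782, 0.398 and 0.653 RPKM, and TBX15, from 7.99, 7.91 and 8.51 to 0.208, 0.394 and 0.36 RPKM, were close to absent with MEL-6. Both were close to absent in vehicle too, with means of 0.43 RPKM for MAF and 0.129 RPKM for TBX15. CSGALNACT1, which starts chondroitin sulfate chains, fell from 16.6, 15.6 and 14.7 to 1.01, 1.29 and 1.4 RPKM. In these 8 genes no library of one group overlapped the other, with limma adjusted p up to 4.73e-08.

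**Figure D2:**
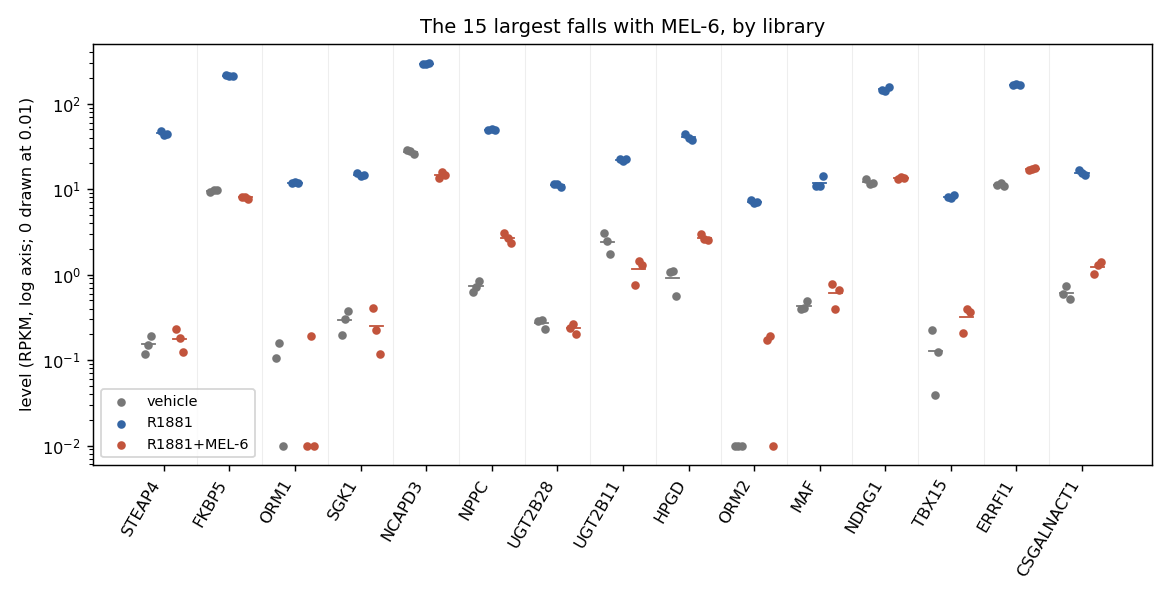
Level in each library (RPKM, log axis, with 0 drawn at 0.01) of the 15 genes that fell most with MEL-6 among called genes at 5 RPKM or more in the higher group, for vehicle (grey), R1881 (blue) and R1881 with MEL-6 (red); short lines mark group means. The 3 R1881 libraries lie above all other libraries in each gene, and the MEL-6 libraries of NCAPD3, FKBP5 and UGT2B11 lie under the vehicle libraries.

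Genes of the UGT2B family, which holds enzymes that inactivate androgen by glucuronidation, moved in both directions. UGT2B28 went from 11.4, 11.4 and 10.4 to 0.238, 0.265 and 0.202 RPKM, UGT2B11 from 22.4, 21.4 and 22.6 to 0.761, 1.46 and 1.3 RPKM and UGT2B4 from 1.09 ± 0.22 to 0.102 ± 0.0795 RPKM, all called lower. The MEL-6 values of UGT2B11 were under its vehicle values of 3.09, 2.47 and 1.74 RPKM. UGT2B17 rose instead, from 3.46, 3.6 and 3.48 to 6.31, 5.92 and 7.07 RPKM (log2 0.79 ± 0.0806, limma adjusted p = 2.01e-05), and stayed under its vehicle values of 15.9, 18.5 and 16.5 RPKM. These genes are near-identical copies, as are the acute-phase genes ORM1, from 11.7, 12.2 and 11.7 to 0, 0.193 and 0 RPKM, and ORM2, from 7.52, 6.81 and 7.13 to 0.173, 0.192 and 0 RPKM. Reads could have been split between copies, so single values in both families are uncertain. Among 14 tested enzymes of steroid synthesis and reduction 3 rose and 4 fell. The rises were those of HSD17B14, from 2.28, 2.54 and 2.59 to 7.17, 6.33 and 7.16 RPKM, and of the reductases AKR1C1, from 0.0515, 0.162 and 0.226 to 1.37, 1.53 and 1.4 RPKM, and AKR1C2, from 0.0996, 0.416 and 0.165 to 2.9, 2.16 and 1.73 RPKM, a pair of near-identical copies that inactivate dihydrotestosterone.

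Of the 16 genes of the HSP90 machinery that keeps steroid receptors ready for hormone, 11 fell and 1, the ubiquitin ligase STUB1 at log2 0.33, rose, with a list median of -0.32. Leaving FKBP5 aside, the falls were moderate: HSP90AA1, the inducible cytosolic HSP90, went from 490.3, 503 and 468 to 364, 353 and 336 RPKM, and its co-chaperone STIP1 from 158, 169 and 174 to 122, 115 and 119.9 RPKM. Of 23 nuclear receptor coregulators, 6 rose and 7 fell, and 4 rose and 10 fell with median-of-ratios scaling. NCOA7 rose from 3.76, 3.96 and 3.03 to 9.37, 9.14 and 9.96 RPKM, while the SUMO ligase PIAS1 fell from 32.7, 34.1 and 34.8 to 15, 13.3 and 14.6 RPKM and the corepressor NRIP1 from 24.2, 22.9 and 22.6 to 11.9, 13.2 and 11.1 RPKM. The vehicle values of PIAS1, 13.2, 12.9 and 14.8 RPKM, overlapped those with MEL-6.

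Surface proteins used as prostate antigens did not share a direction. Of 13 tested, 2 rose and 5 fell, and without MEL-6 replicate 1 there were 4 that rose and 5 that fell. FOLH1, which encodes prostate-specific membrane antigen, rose from 139.7, 141 and 134 to 403, 363 and 354 RPKM (log2 1.43 ± 0.0662; limma adjusted p = 6.45e-08), against 399.6, 430.3 and 456 RPKM in vehicle. SLC45A3, or prostein, fell from 435, 428 and 436 to 90.5, 111 and 117 RPKM, and TRPM8, a cold-sensing channel, from 5.3, 5.56 and 5.3 to 2.43, 2.34 and 2.26 RPKM. The membrane protease TMPRSS2 fell from 520.2, 522 and 547 to 81.5, 91.7 and 88.8 RPKM. Among luminal identity genes, the keratin KRT8 went from 475, 479 and 529 to 75.7, 86.1 and 100.3 RPKM and the ETS factor SPDEF from 220.1, 206 and 236 to 43.4, 51.2 and 58.3 RPKM, whereas the pioneer factor GATA2 rose from 22.6, 25.3 and 25.9 to 56.1, 52.6 and 60.3 RPKM. Of the 13 luminal markers 6 fell and 3 rose.

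The machinery of secretion fell broadly but by small amounts. Of 34 tested genes of the COPI, COPII and Golgi coats, which shape vesicles between the endoplasmic reticulum (ER) and the Golgi, 31 fell and 1 rose, with a median log2 change of -0.36. KDELR2, the receptor that returns ER proteins, fell from 134, 139.7 and 136 to 76.1, 79.1 and 81.4 RPKM and the COPII GTPase SAR1B from 34.9, 34.1 and 30.3 to 17.9, 18.8 and 17.7 RPKM. SEC31B, a low-level paralogue of a COPII coat gene, was the rise, from 0.77, 0.959 and 0.793 to 2.71, 1.88 and 1.56 RPKM. Genes of sugar nucleotide and glycan synthesis fell in 25 of 42 cases and rose in 5. UAP1, which makes the glycan donor UDP-N-acetylglucosamine, fell from 271, 276 and 268 to 89.2, 98.6 and 98.7 RPKM, PGM3 of the same pathway from 43.9, 41.1 and 40.5 to 18.1, 21 and 17.7 RPKM, and ST6GALNAC1, which adds sialic acid to mucin-type glycans, from 12.2, 13.3 and 13.6 to 4.01, 4.16 and 3.87 RPKM. The mucin-type glycosyltransferase GALNT10 went the other way, from 8.62, 9.3 and 9.22 to 22.5, 24 and 24.2 RPKM.

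Of 41 ER folding and degradation genes 27 fell and 5 rose, with a median of -0.30. The mannosidase-like EDEM3, which marks misfolded glycoproteins for disposal, led the falls with 45.6, 40.6 and 39.6 RPKM in R1881 and 17.6, 17.1 and 15.7 RPKM with MEL-6. SEC61G, a subunit of the translocation channel, fell from 163, 141 and 132 to 79.7, 77.3 and 78.4 RPKM. The 5 that rose were ATF6, ERO1LB, SEL1L, HERPUD1 and XBP1. Among these are the sensor ATF6 and the transcription factor XBP1 of the unfolded protein response. Their log2 changes were 0.43 for ATF6, 0.46 for ERO1LB, 0.49 for SEL1L, 0.19 for HERPUD1 and 0.25 for XBP1, and the call of HERPUD1 was lost with median-of-ratios scaling (log2 0.09, limma adjusted p = 0.218) and without R1881 replicate 2 (limma adjusted p = 0.0785). RAB GTPases, which direct vesicles to their targets, rose in 16 and fell in 11 of 51 cases, shares near those of all tested genes (31.4% and 20.6%), and with median-of-ratios scaling 12 rose and 19 fell. RAB3B, an exocytosis RAB, fell from 26, 23.9 and 26.4 to 9.02, 10.9 and 10.2 RPKM and the recycling gene RAB4A from 98.3, 92.3 and 91.9 to 41.6, 37.7 and 37.8 RPKM, while RAB39B rose from 3.39, 3.09 and 3.08 to 9.78, 10.1 and 10.2 RPKM.

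Lipid synthesis and polyamine genes were among those more often lower. Of 26 sterol synthesis and uptake genes 20 fell and 2 rose, with a median of -0.53. SCAP, the escort of the sterol-sensing transcription factors, fell from 66.1, 67.6 and 71.2 to 24.5, 26.8 and 29.4 RPKM. INSIG2, which retains SCAP in the ER, rose from 7.33, 7.9 and 6.71 to 11.7, 10.5 and 9.78 RPKM. Fatty acid synthesis genes fell in 12 and rose in 7 of 21 cases. ACSL3, a fatty acid ligase, went from 434, 415 and 414 to 53.7, 47.3 and 45.3 RPKM, the elongase ELOVL7 from 91.9, 87.3 and 84.2 to 24.3, 21.1 and 20.2 RPKM, and fatty acid synthase FASN from 288, 243 and 302 to 70.8, 95 and 104 RPKM. Of 13 polyamine enzymes 7 fell and 2 rose. Spermine synthase, SMS, fell from 206, 204 and 209.7 to 44.1, 40.8 and 43.8 RPKM and ornithine decarboxylase, ODC1, from 611, 607 and 624 to 216, 212 and 216 RPKM. Enzymes of polyamine breakdown did not share a direction: SAT1, which acetylates spermidine and spermine, fell from 205, 221 and 212 to 121, 109 and 115 RPKM, and SMOX, which oxidises spermine, rose from 1.9, 1.99 and 1.96 to 3.52, 3.74 and 4.07 RPKM. With MEL-6 the values of SMS and ODC1 lay under those of vehicle, 45.2, 46.5 and 49 RPKM and 221, 226 and 228 RPKM.

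Peroxisome and fatty acid oxidation genes were called in both directions, with 9 higher and 10 lower of 38, not far from the shares over all tested genes. AMACR, the racemase used as a marker of prostate cancer, fell from 25.8, 25.2 and 26.1 to 8.75, 8.13 and 9.11 RPKM, and SLC25A20, the mitochondrial carnitine carrier, from 23.5, 23.7 and 24.7 to 10.7, 11.5 and 10.8 RPKM. Among 10 tested prostaglandin enzymes and receptors 5 rose and 4 fell. Besides HPGD, the receptor PTGER4 fell from 8.03, 8.26 and 8.57 to 0.981, 1.16 and 0.731 RPKM and the efflux pump ABCC4 from 95, 92 and 93.5 to 17.2, 18.8 and 17.6 RPKM. The secreted phospholipase PLA2G2A rose from 0.284, 0.891 and 0.987 to 1.75, 1.54 and 1.85 RPKM.

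On the log2(RPKM + 0.5) scale the largest rise was that of DIO3 (chromosome 14, 102027688 to 102029789), which inactivates thyroid hormone. It was at 0.203, 0.459 and 0.247 RPKM with R1881, at 0.292, 0.448 and 0.459 RPKM in vehicle and at 18.4, 15.8 and 17.3 RPKM with MEL-6, so that it was near absent except where MEL-6 was given (log2 4.47 ± 0.139; limma adjusted p = 4.12e-09). NOS3, the endothelial nitric oxide synthase, went from 0.693, 0.517 and 0.795 to 8.77, 8.07 and 8.61 RPKM and GPNMB, a lysosomal and surface glycoprotein, from 0.978, 1.08 and 0.994 to 12.3, 10.8 and 10.0 RPKM. Vehicle values were 1.09, 0.935 and 1.09 RPKM for NOS3 and 1.71, 1.13 and 2.13 RPKM for GPNMB, under every MEL-6 value. NOS3 sits on the endothelial marker list, which summed to 1.14 to 1.63 RPKM with R1881 and 9.12 to 9.83 RPKM with MEL-6. The other tested member, VWF, went from 0.393, 0.388 and 0.486 to 0.594, 0.697 and 0.806 RPKM (log2 0.38 ± 0.139; limma adjusted p = 0.0428), a call lost in 9 of the 14 alternatives that tested it (limma adjusted p of 0.0509 to 0.127), and PECAM1, CDH5, FLT1 and ERG were listed at 0 in all 6 libraries. FGF13, an intracellular fibroblast growth factor homologue, rose from 0.268, 0.409 and 0.421 to 5.91, 4.44 and 5.55 RPKM, ARHGEF2, a microtubule-bound activator of RHOA, from 4.72, 4.51 and 4.45 to 29.4, 26 and 27.6 RPKM, and RELN, the secreted glycoprotein reelin, from 4.83, 4.45 and 4.78 to 23.5, 27.2 and 26.6 RPKM. These genes, too, lay above all vehicle libraries with MEL-6.

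A second kind of rise brought genes part of the way from a low level with R1881 toward a high level in vehicle. LRRN1, a leucine-rich repeat membrane protein, was at 7.99, 7.81 and 7.76 RPKM with R1881, 56, 56.3 and 52.7 RPKM with MEL-6 and 114, 120.5 and 119 RPKM in vehicle. CXCR7, an atypical chemokine receptor, went from 7.8, 7.7 and 7.75 RPKM with R1881 to 46.8, 50.5 and 54.3 RPKM, with vehicle at 73.8, 68.9 and 64.1 RPKM. FAM198B stood at 2.21 ± 0.324, 17.5 ± 1.04 and 31.7 ± 2.13 RPKM in R1881, MEL-6 and vehicle, and CAMK2N1, an inhibitor of the kinase CaMKII, at 2.08 ± 0.0738, 13.3 ± 0.341 and 22 ± 0.993 RPKM (SD, n = 3). In these 4 genes the MEL-6 libraries lay above R1881 and under vehicle without overlap. OPRK1, the kappa opioid receptor, reached 5.32, 6.34 and 6.21 RPKM from 0.358, 0.359 and 0.377 RPKM, and its vehicle values of 5.1, 5.56 and 5.57 RPKM overlapped those with MEL-6. LOC100505633, an uncharacterised transcript, rose past its vehicle level, from 0.92, 1.11 and 1.51 to 13.6, 10.3 and 9.21 RPKM against 4.54, 6.07 and 6.21 RPKM in vehicle.

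**Figure D3:**
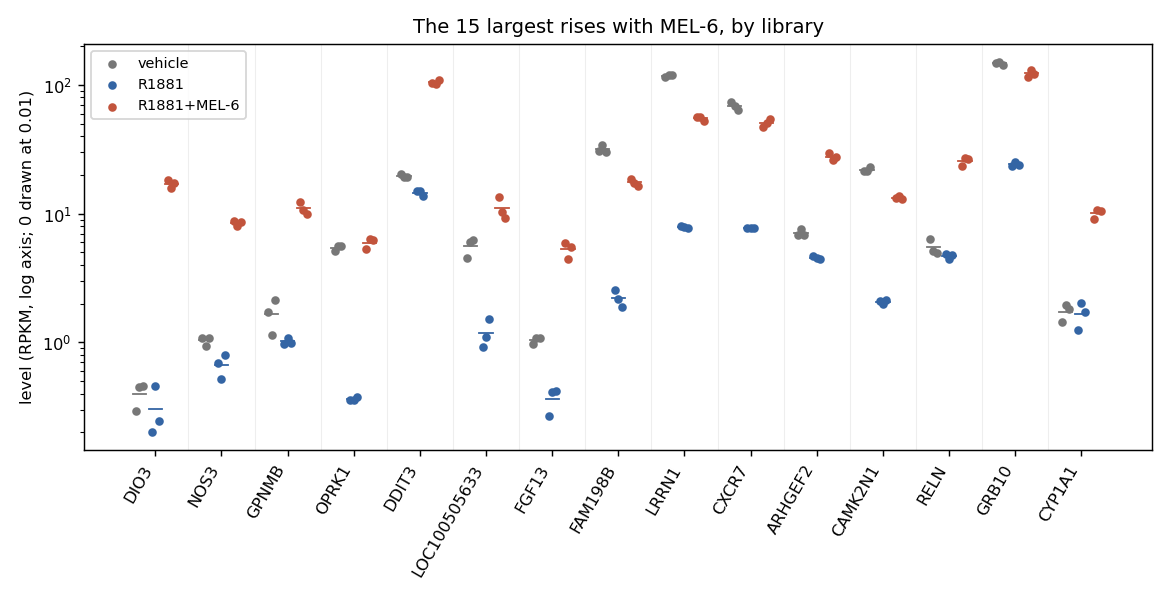
Level in each library (RPKM, log axis, with 0 drawn at 0.01) of the 15 genes that rose most with MEL-6 among called genes at 5 RPKM or more in the higher group, for vehicle (grey), R1881 (blue) and R1881 with MEL-6 (red); short lines mark group means. DIO3, NOS3, GPNMB, FGF13, ARHGEF2, RELN, DDIT3, CYP1A1 and LOC100505633 are highest with MEL-6, whereas LRRN1, CXCR7, FAM198B, CAMK2N1 and GRB10 lie between R1881 and vehicle.

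Targets of ATF4 rose together. Of 20 tested, 18 were called higher and 1 lower, 13 of the rises reaching 2-fold, with a median log2 change of 1.15. ATF4 itself was at 134, 146 and 138 RPKM with R1881, 349, 318 and 347 RPKM with MEL-6 and 186, 176 and 191 RPKM in vehicle. DDIT3, or CHOP (chromosome 12, 57910434 to 57914300), a transcription factor of prolonged stress, was at 14.9, 15 and 13.8 RPKM with R1881 and at 103, 103 and 109.9 RPKM with MEL-6. The pseudokinase TRIB3, a feedback inhibitor of ATF4, went from 27.2, 28.6 and 28.2 to 122, 126 and 138 RPKM. CHAC1, which degrades glutathione, went from 6.73, 6.81 and 7.22 to 25.6, 25 and 28.1 RPKM and the secreted glycoprotein STC2 from 10.9, 11.8 and 11.4 to 42.8, 38.2 and 40.5 RPKM. For each of these 5 genes every MEL-6 library was above every R1881 and every vehicle library, with limma adjusted p up to 6.22e-08. The exception on the list was VLDLR, a lipoprotein receptor, which fell from 19.1, 18.8 and 18 to 5.53, 8.12 and 6.44 RPKM.

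The promoters of CHAC1 and of ASNS, asparagine synthetase, are shown because both hold a match to the element TGATGNAA that ATF4 dimers bind, given in capitals. Windows are those of RefSeq on GRCh38.p14, CHAC1 at chr15:40953221-40953520 on the + strand with the match 209 bases before the start, read on the opposite strand, and ASNS at chr7:97872359-97872658 on the - strand with the match 68 bases before it.
CHAC1: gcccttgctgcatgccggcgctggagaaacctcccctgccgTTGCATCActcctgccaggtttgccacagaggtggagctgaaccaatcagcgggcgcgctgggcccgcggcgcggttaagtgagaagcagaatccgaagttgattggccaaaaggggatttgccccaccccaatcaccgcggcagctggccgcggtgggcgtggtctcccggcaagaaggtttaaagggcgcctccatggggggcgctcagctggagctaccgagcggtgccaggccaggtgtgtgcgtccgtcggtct
ASNS: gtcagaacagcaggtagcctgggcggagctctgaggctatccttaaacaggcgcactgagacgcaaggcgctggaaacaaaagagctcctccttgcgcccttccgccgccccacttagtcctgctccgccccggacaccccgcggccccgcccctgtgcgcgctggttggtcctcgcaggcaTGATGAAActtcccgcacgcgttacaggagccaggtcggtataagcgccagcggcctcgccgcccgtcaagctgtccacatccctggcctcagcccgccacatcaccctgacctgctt
On both strands, TGATGNAA was found in 3.67% of all windows, in 1.59% of tested genes with a window and in 4 of 17 ATF4 effectors with one (23.5%). Among genes higher by 2-fold or more the share was 2.89%, and among genes lower by 2-fold or more 1.33%.

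Enzymes and carriers that supply amino acids followed in part. Of 23 cytosolic aminoacyl-tRNA synthetase genes and their cofactors, 12 rose and 6 fell, against 3 and 4 of 17 mitochondrial synthetases (2 and 7 with median-of-ratios scaling). The alanyl synthetase AARS rose from 152, 152 and 162 to 315, 344 and 349 RPKM and the seryl synthetase SARS from 33, 34.4 and 34.8 to 81.9, 78.6 and 79.3 RPKM, while FARSB, a subunit of the phenylalanyl enzyme, fell from 64.1, 62.2 and 63.8 to 44.2, 39.9 and 35.3 RPKM. Amino acid transporters rose in 12 of 24 cases and fell in 4. The cystine importer SLC7A11 rose from 32.1, 31.1 and 28.5 to 96.8, 95.9 and 99.4 RPKM, the glycine carrier SLC6A9 from 3.48, 3.95 and 4.39 to 15.3, 14.3 and 15.7 RPKM and the leucine exchanger SLC7A5 from 0.913, 0.854 and 0.868 to 3.53, 4.19 and 4.12 RPKM. Falls were found too. The system A carrier SLC38A4 went from 5.9, 5.8 and 5.56 to 0.183, 0.203 and 0.209 RPKM (log2 -3.16 ± 0.114; limma adjusted p = 1.09e-08), and SLC43A1, a leucine carrier found at high level in prostate, from 60.8, 58.8 and 61.6 to 29.1, 30.1 and 32 RPKM. Serine and folate one-carbon enzymes rose in 10 of 17 cases and fell in 4. PSAT1 of serine synthesis rose from 94.3, 99.4 and 94.3 to 234, 232 and 249 RPKM, and the mitochondrial enzymes SHMT2 and MTHFD1L rose from 105 ± 4.03 to 185 ± 8.53 RPKM and from 4.61 ± 0.63 to 9.22 ± 0.896 RPKM (SD, n = 3). The falls included MTHFD1, TYMS and GART, which serve purine and thymidylate synthesis, at log2 -0.37, -0.77 and -0.16.

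**Figure D4:**
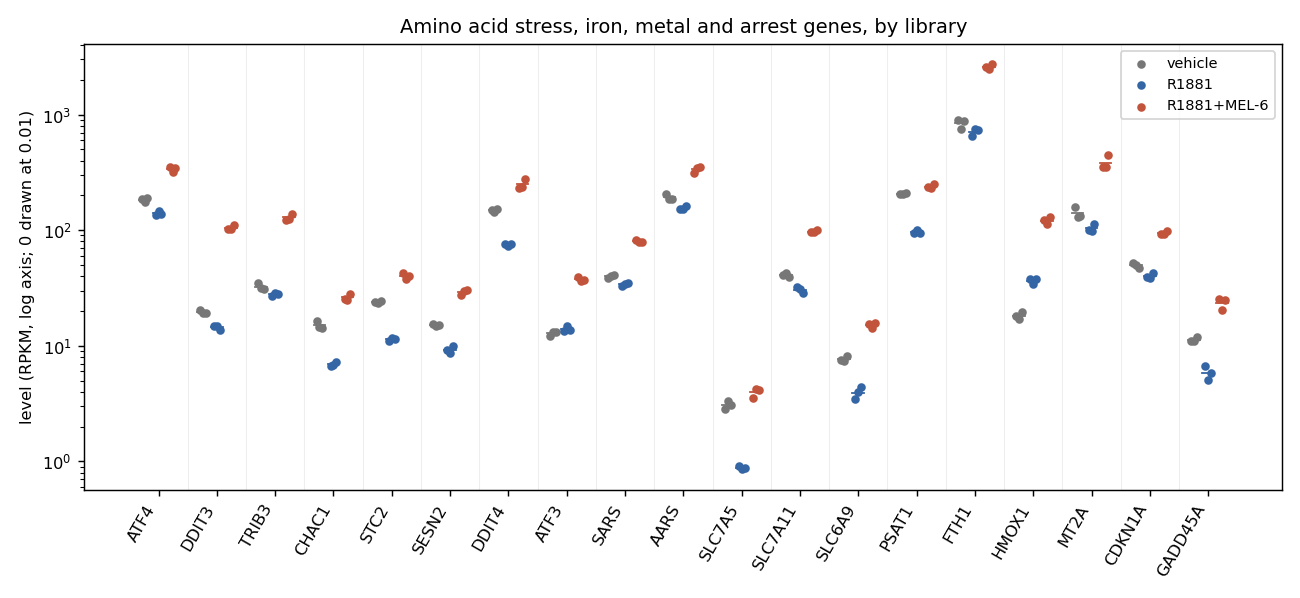
Level in each library (RPKM, log axis) of genes of amino acid stress, iron and metal handling and growth arrest, for vehicle (grey), R1881 (blue) and R1881 with MEL-6 (red); short lines mark group means. In each gene the 3 MEL-6 libraries lie above all R1881 and vehicle libraries.

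Cytosolic ribosomal protein genes rose more often than they fell. Of 72 cytosolic ribosomal proteins 42 rose and 0 fell, with a median log2 change of 0.26. With median-of-ratios scaling 23 rose and 1 fell, and the median was 0.16. Together these genes took 10.2%, 10.7% and 11% of summed RPKM with R1881, 12.9%, 13% and 13.6% with MEL-6 and 11.9% to 12.5% in vehicle. RPL12 went from 416, 448 and 476 to 609.5, 624 and 723 RPKM and RPS2 from 256, 274 and 333 to 407, 381 and 466 RPKM. Ribosomal protein genes have many processed pseudogenes, and reads could have been split between them, so single values are uncertain. Mitochondrial ribosomal proteins fell in 22 of 76 cases and rose in 9, and with median-of-ratios scaling 40 fell and 4 rose. The largest fall was that of MRPS18A, from 27.1, 27.6 and 27.9 to 14.4, 11.5 and 13.9 RPKM. Initiation factors rose in 18 and fell in 13 of 43 cases, and with median-of-ratios scaling 15 rose and 20 fell. EIF4E3, a cap-binding paralogue, rose from 0.51, 0.805 and 0.588 to 2.97, 2.66 and 2.77 RPKM, and EIF1, which guards start codon choice, from 336, 349 and 346 to 506, 583 and 608 RPKM.

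Several metal and iron genes rose at high level. FTH1, ferritin heavy chain, was at 655, 744 and 739 RPKM with R1881, 894, 750.5 and 884 RPKM in vehicle and 2560.0, 2468 and 2727 RPKM with MEL-6, a log2 change of 1.86 ± 0.0849 (SE; limma adjusted p = 6.21e-08). The level of FTH1 lay above that of KLK3 with MEL-6 and in vehicle, and under it with R1881 alone. The ferritin light chain FTL rose from 188, 204 and 221 to 339.9, 373 and 428 RPKM and heme oxygenase, HMOX1, which frees iron from heme, from 37.6, 34.2 and 37.8 to 122, 113 and 129 RPKM. The transferrin receptor TFRC, which brings iron in, fell from 112, 104 and 102 to 64, 73.1 and 71.3 RPKM. Of 17 tested iron genes 7 rose and 5 fell, 7 and 8 with median-of-ratios scaling, the reductase STEAP4 among the latter. Genes of glutathione, thioredoxin and NRF2 rose in 14 and fell in 8 of 34 cases. With median-of-ratios scaling 14 rose and 13 fell, and the median turned from 0.05 to -0.05.

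The 4 tested metallothioneins, small proteins that bind zinc and copper, all rose. MT2A was at 101, 99.2 and 113 RPKM with R1881 and 351, 351 and 445 RPKM with MEL-6, MT1X rose from 31.5, 37.1 and 37.2 to 80.1, 90.3 and 108 RPKM, and MT1G from 9.15, 8.25 and 12.6 to 44.5, 51.5 and 56 RPKM. MT1F rose from 8.79 ± 0.702 to 25.8 ± 2.31 RPKM (SD, n = 3). These genes are near-identical copies, so that reads could have been split between them, and their log2 changes ran from 1.37 for MT1X to 2.30 for MT1G. MTF1, the metal-sensing transcription factor that drives them, fell slightly, from 5.76, 6.04 and 6.3 to 4.38, 4.66 and 4.58 RPKM. Of 11 zinc importers 3 rose and 6 fell, 5 and 5 without MEL-6 replicate 1, and SLC39A10 had the largest change, from 30.7, 30.4 and 28.6 to 9.22, 9.11 and 8.69 RPKM. The promoter of MT2A is shown because it holds 8 matches to the core of the metal response element, TGCACNC or TGCGCNC on either strand, given in capitals; the window is chr16:56608334-56608633 on the + strand of GRCh38.p14, from RefSeq.
MT2A: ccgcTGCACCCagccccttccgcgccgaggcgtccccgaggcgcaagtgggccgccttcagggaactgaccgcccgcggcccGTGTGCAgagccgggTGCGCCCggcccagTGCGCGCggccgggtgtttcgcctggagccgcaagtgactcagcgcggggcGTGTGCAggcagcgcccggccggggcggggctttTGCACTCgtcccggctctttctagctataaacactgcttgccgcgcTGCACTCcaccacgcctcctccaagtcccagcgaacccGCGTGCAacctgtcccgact
This core is common: 29.3% of all windows and 39.4% of those of tested genes held at least 1 match.

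Most protein quality control genes of the cytosol fell. Of 37 proteasome subunits 27 fell and 2 rose, with a median of -0.31. The core subunit PSMA6 fell from 176, 174 and 179.5 to 96.9, 100.5 and 94.9 RPKM. Those that rose were PSMB8, from 0.57, 0.839 and 0.604 to 2.35, 1.36 and 1.2 RPKM, and PSMB9, from 0.474, 0.354 and 0.0991 to 0.773, 0.759 and 0.766 RPKM, which replace the standard catalytic subunits in the immunoproteasome and were at low level. Neither call held throughout: PSMB8 was not called without MEL-6 replicate 1 (log2 0.61, limma adjusted p = 0.0536) or R1881 replicate 1 (0.0531), nor PSMB9 without R1881 replicate 3 (0.0526). Cytosolic chaperones and the chaperonin fell in 15 of 22 cases and rose in 4, 2 with median-of-ratios scaling, with TCP1, a chaperonin subunit, at 175, 173 and 167 RPKM in R1881 and 109.9, 109.9 and 106 RPKM with MEL-6. HSPA9, the mitochondrial HSP70, rose from 111, 114 and 108 to 202, 188 and 184 RPKM. The other rises were the mitochondrial chaperonin HSPD1 (log2 0.31), the co-chaperone DNAJB6 (log2 0.24) and the inducible cytosolic HSP70 gene HSPA1B (log2 0.23), whose value is uncertain because it has a near-identical copy. Lysosome and autophagy genes rose in 19 and fell in 10 of 54 cases, shares near those of all tested genes, and with median-of-ratios scaling 17 rose and 18 fell. The autophagy receptor SQSTM1 rose from 119.8, 125 and 129 to 191, 197 and 221 RPKM and the cholesterol carrier NPC2 from 42.2, 47.6 and 45.8 to 73.7, 73 and 77.3 RPKM, while WIPI1, which acts in forming autophagosomes, fell from 19.6, 20.7 and 21.2 to 6.74, 5.69 and 4.96 RPKM.

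Of 25 glycolysis genes 16 fell and 3 rose, with a median of -0.28. Lactate dehydrogenase LDHA fell from 198, 201 and 196 to 108, 101 and 101 RPKM and lay under its vehicle values of 205, 195 and 211 RPKM. The glucose carrier SLC2A3 fell from 2.31, 1.81 and 2.36 to 0.037, 0.0411 and 0.047 RPKM. The muscle and neuronal enolases ENO3 and ENO2 and PFKM were the rises, ENO2 from 26.4, 29 and 28.6 to 51.6, 58.7 and 57.9 RPKM. GAPDH, often used as a reference gene, went from 1433, 1524 and 1535 to 1106, 1264 and 1340.0 RPKM (log2 -0.28 ± 0.0924; limma adjusted p = 0.0267), a call lost in 5 of 15 alternatives with a limma adjusted p of 0.051 to 0.116, among them without MEL-6 replicate 1 (log2 -0.20) and without R1881 replicate 2 or 3. ACTB went from 1269, 1294 and 1419 to 739.5, 893 and 986 RPKM. In the TCA cycle 3 of 24 rose and 6 fell, and 3 and 11 with median-of-ratios scaling. Of 78 respiratory chain and ATP synthase subunits 5 rose and 19 fell, with a list median of -0.10, and with that scaling 1 rose and 38 fell. The single largest of these was COX7A2L, at log2 0.40 ± 0.0488.

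Genes of DNA synthesis were lower with MEL-6. Of 47 replication and nucleotide supply genes 41 fell and 0 rose, with a median log2 change of -0.65. RRM2, the regulatory subunit of ribonucleotide reductase, went from 37.2, 34 and 35.8 to 9.25, 10.4 and 10.8 RPKM. CDC6, which loads the replicative helicase, went from 17.7, 18.7 and 18.8 to 7.21, 7.18 and 6.47 RPKM, the helicase cofactor CDC45 (listed as CDC45L) from 14.6, 14.2 and 13.7 to 4.94, 5.65 and 4.99 RPKM, and the flap endonuclease FEN1 from 37, 33.5 and 34.9 to 11, 13.7 and 14.3 RPKM. In all 4 the vehicle libraries were above the R1881 libraries, for RRM2 at 45.3, 42.6 and 44 RPKM and for CDC6 at 23.2, 25.2 and 23.2 RPKM. The promoter of CDC6 is shown because it holds a match to the E2F element TTTNNCGC, given in capitals, starting at base 7 after the gene start; the window is chr17:40287629-40287928 on the + strand of GRCh38.p14, from RefSeq.
CDC6: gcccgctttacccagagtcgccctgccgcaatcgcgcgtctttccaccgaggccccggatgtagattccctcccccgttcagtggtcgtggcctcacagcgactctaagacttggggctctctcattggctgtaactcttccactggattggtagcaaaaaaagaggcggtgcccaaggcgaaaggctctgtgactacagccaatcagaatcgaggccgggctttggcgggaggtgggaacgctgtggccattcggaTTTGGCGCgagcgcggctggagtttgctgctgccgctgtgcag
On either strand TTTNNCGC was found in 6.9% of all windows, in 10.9% of those of tested genes and in 20 of the 40 replication genes with a window (50%). Among all genes lower by 2-fold or more the share was 13.8%.

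Repair and division genes fell as well. Homologous recombination, Fanconi and mismatch repair genes fell in 21 of 34 cases, with FANCI going from 30.3, 30.0 and 28.4 to 11.7, 13.8 and 13.7 RPKM. The 3 that rose were BARD1, the partner of BRCA1, from 12.2, 11.1 and 10.7 to 25.1, 30.2 and 28.5 RPKM, the mismatch repair gene PMS2, from 9.04, 10.3 and 9.82 to 17.6, 18.2 and 19.4 RPKM, and RBBP8 (log2 0.36). PMS2 has near-identical pseudogene copies, so its value is uncertain. Of 44 mitosis genes 37 fell and 1 rose, with a median of -0.48. Apart from NCAPD3 these included the centromere gene CENPN, from 143, 138 and 141 to 16.5, 18.5 and 17.6 RPKM, the phosphatase CDC25A, from 6.87, 7.17 and 7.42 to 2.94, 3.47 and 3.27 RPKM, and the kinetochore gene SPC25, from 12.5, 11.1 and 12.1 to 5.41, 5.59 and 5.91 RPKM. CENPN, also on the androgen-induced list, stood at 14.5, 14.7 and 13 RPKM in vehicle, under every MEL-6 value. The vehicle values of CDC25A, 8.49, 8.06 and 7.66 RPKM, and of SPC25, 12.8, 14.7 and 12.2 RPKM, lay above every MEL-6 value. The phosphatase CDC25B rose, from 15.9, 17.1 and 15.9 to 18.2, 22.1 and 23.4 RPKM. Clustered histone genes, many of them near-identical copies without a poly(A) tail, were called higher in 9 and lower in 5 of 36 cases, and 5 and 5 with median-of-ratios scaling.

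Control genes of the G1 phase moved in both directions, with 7 higher and 11 lower of 27, and 4 and 13 with median-of-ratios scaling. CDKN1A, or p21, which halts cyclin-dependent kinases, rose from 39.2, 38.6 and 43 to 93.4, 92.3 and 98.3 RPKM. CDK2 fell from 39.2, 39.9 and 38.2 to 17.5, 18.5 and 18.2 RPKM and E2F1 from 13.2, 14 and 15.1 to 6.05, 6.45 and 7.51 RPKM. Of 27 p53 targets 21 rose and 4 fell, with a median of 0.74. GADD45A, a growth arrest gene, rose from 6.65, 5.04 and 5.82 to 25.3, 20.4 and 25.1 RPKM and SESN2, a stress-induced inhibitor of mTORC1, from 9.26, 8.59 and 9.97 to 27.4, 29.8 and 30.4 RPKM. The phosphatase PPM1D, which dampens p53, fell from 15.6, 14.9 and 15.5 to 8.47, 6.78 and 6.82 RPKM, and the death receptor TNFRSF10B from 94.6, 96.9 and 96.4 to 51.2, 53.8 and 54.6 RPKM. In the BCL2 family 7 of 18 rose and 2 fell, and with median-of-ratios scaling 5 rose and 2 fell. Over all tested genes 31.4% rose and 20.6% fell. The rises included the death-promoting BBC3, from 1.76, 1.84 and 1.91 to 5.14, 4.88 and 6.03 RPKM, and BMF, from 1.59, 1.7 and 1.53 to 3.96, 3.56 and 3.8 RPKM, and the protective BCL2, from 0.434, 0.338 and 0.396 to 1.23, 1.44 and 1.47 RPKM.

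Growth factor signalling genes showed opposite changes within one pathway. IGF1R, the receptor of insulin-like growth factors, fell from 24.2, 22.7 and 26.4 to 3.85, 4.77 and 4.59 RPKM (log2 -2.35 ± 0.108), and its vehicle values of 4.07, 3.23 and 3.11 RPKM overlapped those with MEL-6. GRB10, an adaptor that restrains insulin and IGF receptors, rose from 24.1 ± 0.832 to 123 ± 6.98 RPKM (SD, n = 3; log2 2.33 ± 0.0536), with vehicle at 149, 149.7 and 143 RPKM. The larger limma adjusted p of the pair was 6.22e-08, and the list of 19 had 8 higher and 5 lower, 6 and 5 with median-of-ratios scaling. ERBB receptors, ligands and inhibitors rose in 9 and fell in 4 of 16 cases. The 2 largest falls were inhibitors of the receptors, ERRFI1 and LRIG1, the latter from 108, 106 and 109.7 to 30.2, 30.5 and 31.2 RPKM, and the ligand NRG3 rose from 0.32, 0.283 and 0.223 to 2.15, 1.95 and 2.24 RPKM. TGF-beta and BMP regulators rose in 10 and fell in 5 of 28 cases, shares near those of all tested genes. The receptor BMPR1B fell from 43.1, 42.6 and 43.2 to 10.0, 9.75 and 9.66 RPKM. The target ID1 rose from 3.11, 3.73 and 3.49 to 12.6, 13.4 and 14.1 RPKM and the pseudoreceptor BAMBI from 3.96, 5.47 and 5.48 to 19, 17.2 and 20.3 RPKM.

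Transcription factors outside these pathways were mixed. MYC rose from 46.2, 46.6 and 49.1 to 87.1, 88.9 and 92.6 RPKM, against 95.5, 92.4 and 90.2 RPKM in vehicle, and 9 of 17 immediate early factors rose and 3 fell, 7 and 5 with median-of-ratios scaling. The 3 falls were KLF4, from 8.37, 7.73 and 8.69 to 2.58, 2.54 and 2.65 RPKM, FOSL2, from 11.3, 11.3 and 12.4 to 4.48, 5.07 and 6.34 RPKM, and MXD1, an antagonist of MYC, at log2 -0.33, a call lost without R1881 replicate 1 or 3 or MEL-6 replicate 3 (limma adjusted p up to 0.0555). Of 25 nuclear receptors 12 rose and 4 fell. NR4A1 fell from 22.7, 21.6 and 22.9 to 3.6, 5.23 and 4.99 RPKM and PPARG rose from 1.38, 2.03 and 1.88 to 3.83, 4.72 and 4.23 RPKM. Circadian clock genes rose in 13 of 20 cases, with the clock output factor DBP going from 3.02, 3.16 and 3.06 to 8.18, 7.11 and 8.12 RPKM and the clock repressors NR1D1 from 1.41, 1.18 and 1.28 to 3.4, 3.34 and 3.8 RPKM and NR1D2 from 15.9, 15.7 and 14.4 to 37.2, 31 and 31.5 RPKM. Of the list 3 fell, among them PER1 (log2 -0.80) and CRY1 (log2 -0.55). Of 16 ETS factors 5 rose and 5 fell, 3 and 5 with median-of-ratios scaling, with ELF3 rising from 5.02, 5.15 and 5.06 to 13.2, 11.9 and 12.8 RPKM and ELK4 falling from 30.8, 29.7 and 32.4 to 11.7, 13.4 and 13.4 RPKM. CYP1A1, the classic target of the aryl hydrocarbon receptor, rose from 1.25, 2.04 and 1.73 to 9.09, 10.8 and 10.5 RPKM and CYP1A2 from 0, 0.0712 and 0.0166 to 1.12, 1.42 and 1.15 RPKM. TIPARP, a repressor of that receptor, fell from 10.9, 10.3 and 10.4 to 3.95, 4.16 and 3.55 RPKM, and 5 of the 8 genes on the list rose.

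Matrix, immune and noncoding genes were more often higher. Integrins, laminins, collagens and fibronectin rose in 16 of 25 tested cases and fell in 1, with a median of 0.53, and 13 rose and 3 fell with median-of-ratios scaling. COL16A1, a fibril-associated collagen and the gene next to DIO3 in size of rise (log2 3.19 ± 0.151), was at 0.0763, 0.0665 and 0.0744 RPKM with R1881 and 5.9, 4.42 and 3.99 RPKM with MEL-6, above its vehicle values of 0.219, 0.145 and 0.211 RPKM, and FN1, fibronectin, rose from 4.95, 4.76 and 4.95 to 14.1, 15.8 and 15.4 RPKM. The integrin ITGAV fell from 36.5, 33.8 and 32.8 to 23.8, 23.3 and 23.1 RPKM. Of the 20 mesenchymal markers 8 were tested, 4 rose and 2 fell. VIM reached 2.46, 1.55 and 2.17 RPKM, ACTA2 7.08, 6.21 and 6.25 RPKM, and the factor SNAI2 fell from 6.8, 6.82 and 6.89 to 1.11, 0.617 and 0.88 RPKM. The list summed to 30.5 to 34.3 RPKM with R1881 and 37.5 to 41.2 RPKM with MEL-6, and its members CDH2, ZEB2, TWIST2, COL1A2 and DCN were listed at 0 in all 6 libraries. Of 12 neuroendocrine markers 4 were tested, 2 rose and 1 fell. DDC, which makes dopamine and serotonin, rose from 9.46, 8.9 and 8.87 to 33.8, 36.3 and 33.7 RPKM, SYT4, a synaptotagmin, fell from 136, 133 and 124 to 71.4, 70.0 and 66.5 RPKM, and the neuroendocrine factor INSM1 was listed at 0 in all 6 libraries.

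Antigen presentation and interferon genes rose in 17 and fell in 3 of 32 cases, 14 and 5 with median-of-ratios scaling. NLRC5, which drives class I antigen presentation genes, rose from 0.292, 0.396 and 0.262 to 3.1, 3.06 and 2.98 RPKM and IRF1 from 0.239, 0.251 and 0.351 to 1.19, 1.59 and 1.22 RPKM, while B2M, the light chain of class I molecules, fell from 696, 680.2 and 695 to 358, 325 and 323 RPKM. Its vehicle values were 217, 237 and 235 RPKM. Long noncoding RNAs rose in 16 of 18 cases and fell in 0, with a median of 0.64. NEAT1 went from 351, 376 and 247 to 1081, 737 and 619.7 RPKM and MALAT1 from 61, 69 and 52 to 243, 162 and 119 RPKM, both with the highest value in MEL-6 replicate 1, the shallowest library. The part of library quality in these values was not tested. Without that replicate 15 of the 18 were called higher. CRNDE, with close replicates, rose from 6.01, 5.69 and 6.03 to 11.7, 13.6 and 11.9 RPKM. HNRNP and SR splicing factors were lower in 11 and higher in 6 of 36 cases, with a median log2 change of -0.002. With median-of-ratios scaling 14 were lower and 4 higher.

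**Figure D5:**
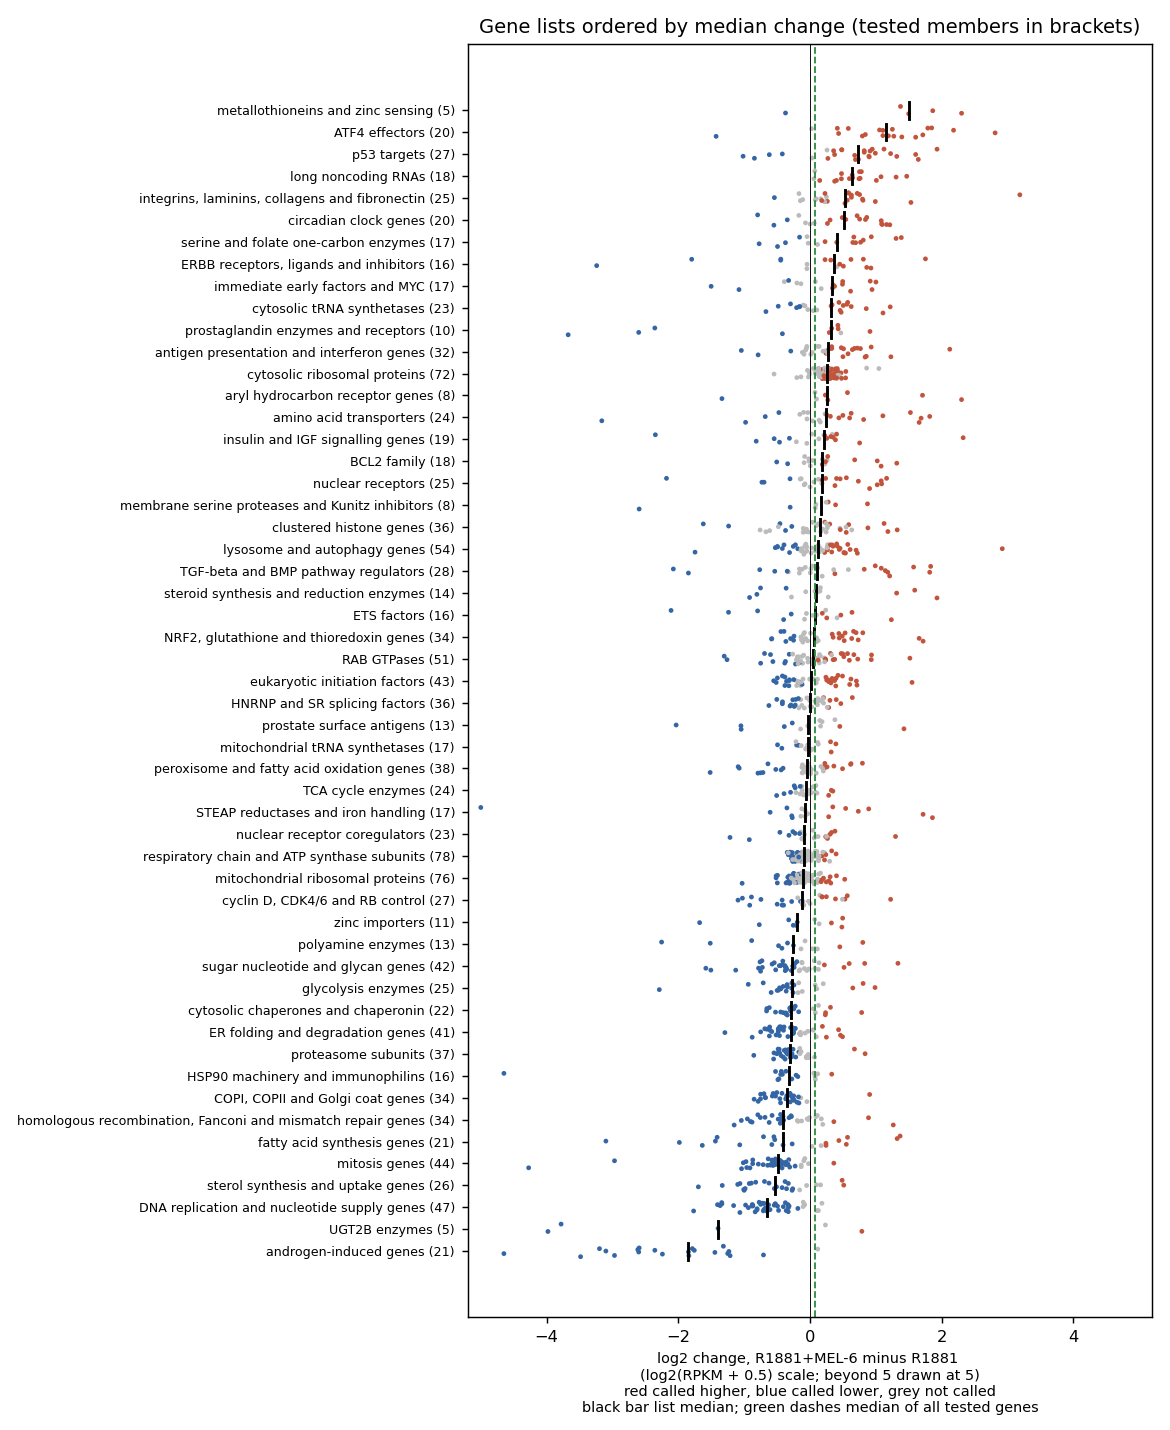
Log2 change with MEL-6 (x axis, log2(RPKM + 0.5) scale, values beyond 5 drawn at 5) of every tested member of each gene list with 5 or more tested members apart from the cell type marker lists, ordered by list median (black bar); red points were called higher, blue lower and grey not called, and the green dashed line is the median of all tested genes. Metallothioneins and ATF4 effectors lie at one end and androgen-induced genes at the other, and lists such as RAB GTPases hold members called in both directions.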

How the data were processed

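Polyadenylated RNA of 9 libraries was sequenced after TruSeq library preparation, per the labels' protocols. The deposited table gave 1 value per gene and library, which the authors had made with CASAVA 1.8 on GRCh37 (hg19), per the submitters' processing notes. The deposited values, made by the authors with CASAVA 1.8, were taken as RPKM, that is, reads divided by gene length and library size. The sheet is named for counts, and no header states the unit. In 43.8% of 2572 low genes values were whole multiples, within 0.0005, of a step scaled by library depth. Such multiples point to read numbers divided by library size, and cannot decide whether gene length was divided out too. Relative depths were the most frequent ratio of low values between each library and vehicle replicate 1. With the unit taken as RPKM, the steps and lengths from GENCODE release 29 turned these depths into estimated reads. The authors' gene models, total reads and use of strand are not given in the sources used here, so that overlapping antisense genes cannot be told apart. A deposited score, the authors' pooled SD per gene, was used only in the closing section.

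Samples were grouped by their titles, and columns matched by the library names in the sample descriptions. Of 25142 entries, 5883 were at 0 in every library, 17 carried date-like names, and the Y copies of 20 symbols listed on X and Y, at 0, were dropped. Values were tested with limma 3.58.1 (R 4.3.3) as limma-trend on log2(RPKM + 0.5), in 1 model of group means over all 9 libraries (residual df 6, prior df 4.31), two-sided, for genes at 0.5 RPKM or more in 3 libraries, with Benjamini-Hochberg adjustment over all 13295 and calls under 0.05. A gene could pass the filter through the libraries of 1 group alone. DIO3, COL16A1, AKR1C1 and AKR1C2 did so through those with MEL-6, and STEAP4, SGK1 and UGT2B28 through those with R1881 alone. The pseudocount makes changes of low genes appear smaller. Levels are mean ± SD (n = 3) and log2 changes estimate ± SE.

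The comparison, the 60 gene lists and the naming rule were chosen with earlier results of these data known. The rule took the 15 largest changes per direction among called genes at 5 RPKM or more in the higher group without overlap, up to 4 called members per list, members against their list where 5 or fewer, and a small fixed set, 307 genes in all without a few that are not reported here, of which the text names a part. Lists are described by counts and medians, without a list test. Promoter windows are RefSeq's on GRCh38.p14, matched by symbol for 9721 of the tested genes, and no coordinates were converted between builds. Alternatives were other pseudocounts, filters, scalings and fits, a replicate block and leaving out each library.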

Additional observations from a re-analysis of the deposited data

How the results depend on the processing

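Over 15 alternatives the number of called genes ran from 5969 to 7051 against 6912, and 287 of the 307 named genes kept their call and direction in every one that tested them. Leaving out 1 library gave 5969 to 6741 calls, 3597 to 4081 higher and 2372 to 2729 lower, and at 2-fold 453 to 513 higher and 295 to 330 lower. The number higher by 2-fold or more was 477 as reported, 830 with a pseudocount of 0.1 RPKM and 285 with 1 RPKM. Median-of-ratios scaling gave 3268 higher and 3783 lower, and upper-quartile scaling 3946 and 2950. Same-numbered libraries of R1881 and MEL-6 correlated in their deviations from the group means at 0.228, -0.042 and 0.515. Not every library correlated best with its own number. With 3 libraries per group these values cannot decide whether the numbers pair them. A replicate block gave 6557 calls, 3983 higher and 2574 lower. Depth limits the low genes: 3 reads in a 2 kb gene equal 0.0954 to 0.268 RPKM, and changes near that level are not firmly sized.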

Other observations

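The authors' deposited table holds a pooled SD for the comparison of R1881 with MEL-6 against R1881. In 18852 of 18852 entries where it was above 0, this value was 2 times the pooled SD of the 6 RPKM values, within a relative tolerance of 0.001. The factor is given as a value of the deposited table, and the column was used in no comparison.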
